A study of Mus musculus with 1016 samples.

Results

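DNA replication of parthenogenetic mouse embryos was set beside that of in vitro fertilized (IVF) zygotes at the same hours of the first cell cycle. Of 57 parthenotes with replication states, 46 were used, namely those collected between 5.5 h after activation and the latest time point of the IVF zygotes, 1 h after 9.5 h. Of 58 IVF zygotes, collected over the same hours counted from insemination, 57 were used. Each had a replication score, the percent of its called bins that were replicated, of 10 to 90. The 11 parthenotes left out were older, and the IVF zygote left out had a score just above 90, against 89.1 for the highest one used. These embryos are part of 733 cells with replication states in the series, which covers stages up to the blastocyst.

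Parthenotes were made from metaphase II oocytes of superovulated (C57BL/6J × CBA)F1 females by activation with Sr2+ in medium without Ca2+, and developed in KSOM medium with no sperm genome. IVF zygotes came from oocytes of the same kind of F1 female inseminated with sperm of DBA/2J males, so they carry a paternal genome of another strain. The study describes its parthenogenetic zygotes as holding a single copy of the maternal genome, so the number of genome copies also differs. Absence of a paternal genome, genome copy number, absence of DBA/2J chromosomes and chemical activation in place of fertilization therefore cannot be told apart. The states carry no alleles, so the absence of the paternal genome could not be checked, and IVF zygotes that the study set aside as parthenogenetic could not be told from the others here. Hours run from activation in parthenotes and from insemination in IVF zygotes, so the clocks start at different events. Embryos of a group came from several litters, but the labels tie no embryo to a female or a collection.

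Replication timing (RT) is the order in which parts of the genome are copied during S phase. In differentiated mammalian cells, gene-rich, open chromatin is usually copied early and gene-poor, lamina-bound chromatin late. In the fertilized mouse egg the maternal and the paternal genome are copied in separate pronuclei. Imprinted genes, which are expressed from only 1 parental copy, are the loci at which embryos without a father differ most clearly in gene regulation.

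Single-cell Repli-seq reads the DNA content of single cells in S phase, and here each cell was a whole 1-cell embryo. The mouse autosomes (GRCm38, mm10) were cut into 50 kb bins, each of which had the state replicated, not replicated or missing in an embryo, and 46433 bins were called in at least 10 embryos of both groups. A higher share of embryos with a bin replicated is read as earlier RT. The states of each group were made in a table of its own, each group counts as 1 sample, and no test between the groups was run. Shares of embryos carry exact (Clopper-Pearson) 95% intervals, which cover the counting of embryos only.

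Before the groups are compared, 2 features of the parthenotes need to be given, because every later value rests on them. First, 31 parthenotes were collected at the same 6 time points as all IVF zygotes (5.5, 6.5, 7.5, 8.5 and 9.5 h and 1 h later) and are called matched-hour parthenotes, and 15 were collected between them, at whole hours (6, 7, 8, 9 and 10 h). These sets stood apart. Across bins, the share replicated in matched-hour parthenotes correlated with that in whole-hour parthenotes at Spearman's R = 0.197, but with that in IVF zygotes at 0.666. For whole-hour parthenotes the correlation with IVF zygotes was 0.375. Within matched-hour parthenotes, embryos of 5.5 to 7.5 h and of 8.5 h or later correlated at 0.614, against 0.646 for the same split of IVF zygotes. These correlations are descriptions, since neighbouring bins are not independent.

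Single embryos showed the same division. The state of a matched-hour parthenote correlated with the share of the other matched-hour parthenotes at a median Pearson's r of 0.315 (-0.0214 to 0.408), and with that of whole-hour parthenotes at 0.0651 (-0.0543 to 0.292). For whole-hour parthenotes the median was 0.20 (-0.0143 to 0.335) with their own set and 0.0775 (-0.0867 to 0.176) with the matched-hour set. With the share of IVF zygotes, matched-hour parthenotes correlated at a median of 0.296 and whole-hour parthenotes at 0.145.

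The sets also differed in the base composition of what they had replicated. Correlated with GC content over bins, the share replicated in matched-hour parthenotes gave a Spearman's R of -0.301, that in whole-hour parthenotes 0.426, and that in IVF zygotes 0.0151. In single embryos, Pearson's r of state with GC content was below 0 in 28 of 31 matched-hour parthenotes (median -0.165, -0.358 to 0.107) and above 0 in 11 of 15 whole-hour parthenotes (median 0.0835, -0.0871 to 0.376). IVF zygotes covered the range of both sets, with a median of -0.0758 (-0.374 to 0.438), below 0 in 38 and above 0 in 19. In them it differed among hours without a steady course. All 5 IVF zygotes of 5.5 h lay between -0.283 and -0.191. Those of 6.5 h lay on both sides of 0, between -0.218 and 0.438, with a median of 0.135. From 7.5 h on, the medians at successive time points were -0.0121, -0.0392, -0.160 and -0.175. What sets the sign of this relation was not tested, and collection date, litter and sequencing run of single embryos were not used here.

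**Figure D1:**
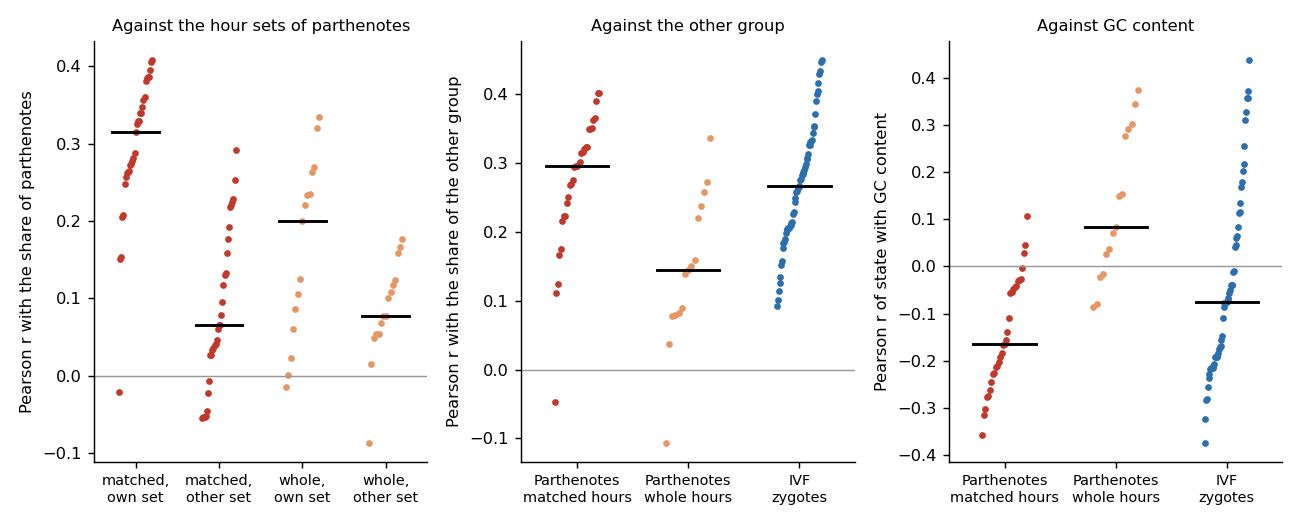
Pearson's r across 50 kb bins for each embryo (points) with medians (bars): with the share of parthenotes of its own and of the other hour set (left), with the share of the other group (middle) and of its states with GC content (right). Matched-hour and whole-hour parthenotes have medians of 0.315 and 0.20 with their own set, against 0.0651 and 0.0775 with the other, and lie mostly on opposite sides of 0 for GC content.

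Second, 3 of 46 parthenotes and 0 of 57 IVF zygotes never switched state along a chromosome, so that each of their chromosomes was wholly replicated or wholly not. The parthenote of 5.5 h had 8 chromosomes replicated, 10 not replicated and chromosome 7 without values, at a score of 46.6. The parthenote of 6 h had 5 replicated and 14 not (score 25.3), and that of 10 h had 14 replicated and 5 not (score 73.5). Chromosome 5 was replicated in all 3 of them, and chromosomes 3 and 9 in 0 of 3. In the study's quality table the parthenote of 5.5 h was flagged, and those of 6 h and 10 h had failed. Of the 4 parthenotes used that had failed there, those of 6, 7 and 10 h were whole-hour ones and that of 7.5 h was a matched-hour one. Counting that of 5.5 h, 9 parthenotes and 3 IVF zygotes lacked values on a whole chromosome. By its methods, the study kept cells that met its limit once a single chromosome was removed, and masked that chromosome. Results are therefore given over all 46 parthenotes, for each hour set, and without the 3 embryos with no switch where that matters.

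The parthenotes covered S phase about as widely as the IVF zygotes, at somewhat lower scores. Replication scores ran between 21.7 and 89.2 in parthenotes (median 54.5) and between 29.6 and 89.1 in IVF zygotes (median 62.4). The gap depended on the hour. At 5.5 h, parthenotes had scores of 46.6 to 65.3 (median 52.3, n = 4) and IVF zygotes of 65.4 to 82 (median 76.3, n = 5), and the groups did not overlap. At 6.5 h the medians were 57.4 in 6 parthenotes and 57.6 in 11 IVF zygotes, and at 7.5 h they were 52.5 in 5 parthenotes and 55.3 in 13 IVF zygotes. At 8.5 h the median was 42.8 in 4 parthenotes and 65.8 in 7 IVF zygotes, and at 9.5 h it was 59.3 in 4 parthenotes and 64 in 6 IVF zygotes. Of the 6 shared time points, the latest was the 1 at which parthenotes had the higher median, 73 (n = 8) against 63 in IVF zygotes (n = 15). From 6.5 h on, the ranges of the groups overlapped at every shared time point. Whole-hour parthenotes, which have no IVF zygotes of the same hour, had scores of 25.3 and 33.1 at 6 h, a median of 23.1 at 7 h (n = 3) and one of 76.5 at 10 h (n = 6).

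Scores were related to time in parthenotes and hardly in IVF zygotes. Pearson's r of score with hour was 0.40 over parthenotes (Spearman's R 0.377) and -0.0697 over IVF zygotes (-0.0754). This was carried by the whole-hour set, with r = 0.732 over 15 embryos, against 0.230 over the 31 matched-hour parthenotes. In no group did the hour alone tell how much of the genome an embryo had copied, since at the latest time point parthenotes still ranged between 37.5 and 87.5 and IVF zygotes between 29.6 and 87.

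**Figure D2:**
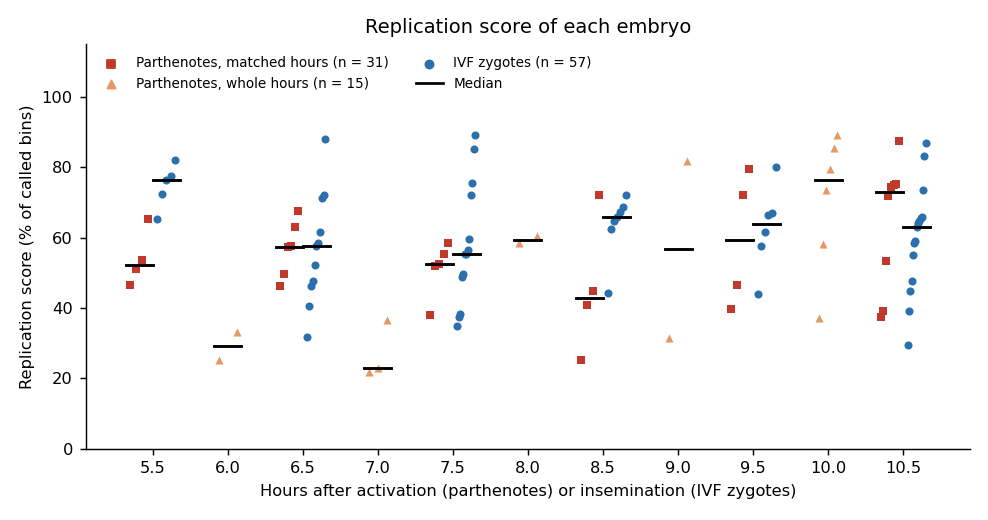
Replication score (percent of called bins replicated, y axis) of each embryo by hours after activation or insemination (x axis), with the median of each group and hour as a bar. At 5.5 h all 5 IVF zygotes (65.4 to 82) lie above the 4 parthenotes, whereas at the latest time point the medians are 73 in parthenotes and 63 in IVF zygotes.

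Single embryos of both groups changed state along the genome about equally often. Switches between replicated and not replicated numbered 0 to 1531 per parthenote (median 1079.5) and 375 to 1558 per IVF zygote (median 1071). The median length of a replicated run was 1.325 Mb in the median parthenote and 1.5 Mb in the median IVF zygote. An embryo resembled the other embryos of its group only weakly, with a median r of 0.249 (-0.0540 to 0.455) in parthenotes and 0.289 (0.108 to 0.522) in IVF zygotes. Natural zygotes (n = 66) are another table of the series. The median r of an embryo with their share was 0.157 in parthenotes (-0.0597 to 0.531) and 0.198 in IVF zygotes (0.0223 to 0.543), with overlapping ranges. Matched-hour parthenotes had a median of 0.155 and whole-hour parthenotes one of 0.194, close to that of IVF zygotes. The shares themselves, which rest on unlike numbers of embryos, were further apart. Across bins, the share of natural zygotes correlated at Spearman's R = 0.694 with that of IVF zygotes and at 0.522 with that of all parthenotes. With whole-hour and matched-hour parthenotes it was 0.508 and 0.390.

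Bin by bin, the 2 groups had similar profiles. The share of embryos replicated correlated at Spearman's R = 0.718 (Pearson's r = 0.777) between parthenotes and IVF zygotes. The median bin was replicated in 56.5% of parthenotes and 64.9% of IVF zygotes, and the difference, parthenotes minus IVF zygotes, had a median of -5.84 percentage points, in the direction of the scores. Differences are given below after subtraction of the median of all bins, windows or genes, and are called centred. A bin counts as earlier in parthenotes at 20 points or more and as later at -20 points or less.

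By this rule 1153 bins (2.48%) were earlier and 1168 (2.52%) later in parthenotes, and the centred difference ran between -39.5 and 46 points. With matched-hour parthenotes alone, at the same hours as the IVF zygotes, 5.40% of bins were earlier and 5.19% later, and with whole-hour parthenotes alone 12.9% and 9.21%. Without the 3 embryos with no switch the shares were 2.09% and 2.70%. Counting of embryos alone spreads these differences, and more so in the matched-hour and whole-hour sets, which have fewer embryos. The SD of the difference over bins was 10.2 points over all parthenotes, 12.4 in matched-hour and 16.9 in whole-hour parthenotes. How many bins counting alone would place beyond the threshold was not computed. Whether the called bins truly replicate earlier or later was therefore not tested, and the same limit holds for the windows and genes called below. The bins called earlier formed 329 runs with a median length of 0.100 Mb and a longest of 1.35 Mb, on chromosome 5, and those called later formed 332 runs with a median of 0.100 Mb and a longest of 1.75 Mb, on chromosome 14. In both directions 24 runs held 10 bins or more.

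**Figure D3:**
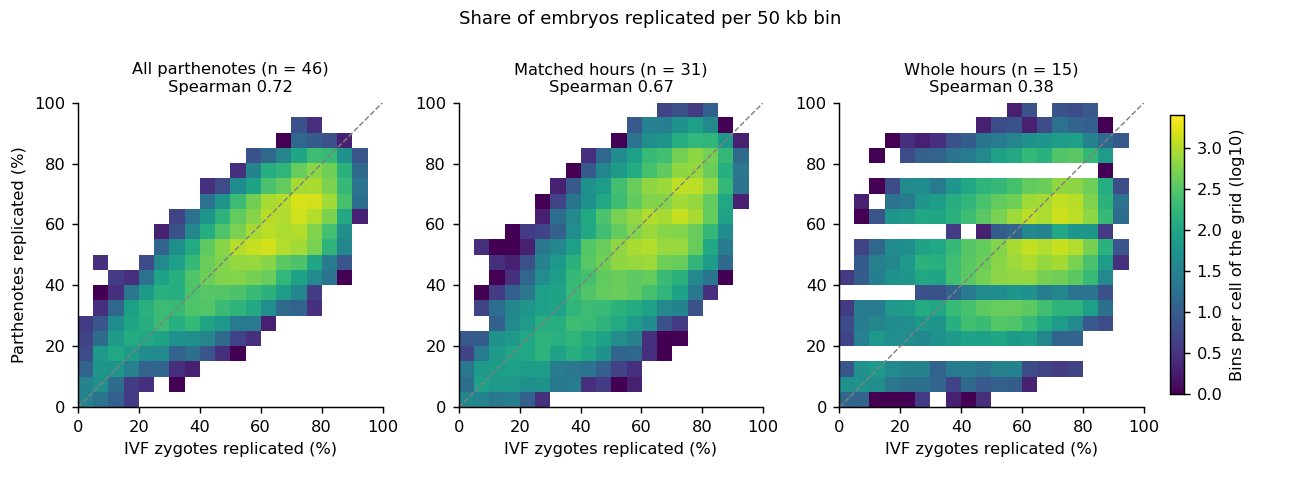
Share of IVF zygotes (x axis) and of parthenotes (y axis) replicated per 50 kb bin, as counts of bins on a grid of 5 percentage points (log10 colour scale), for all 46 parthenotes, 31 matched-hour and 15 whole-hour ones, with the line of equality dashed. Bins lie along the line over all parthenotes (Spearman's R = 0.718) and spread widely for whole-hour parthenotes (0.375), whose bands follow from shares out of 15 embryos.

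The profile of parthenotes was flatter than that of IVF zygotes. The SD of the share over bins was 13.9 points in parthenotes and 16.1 points in IVF zygotes, and bins replicated in at least 50% of embryos made up 70.3% of bins in parthenotes and 78.7% in IVF zygotes. The SD was 17.7 points in the matched-hour set, above that of IVF zygotes, and 15.3 points in the whole-hour set. Both lie above the SD of all parthenotes, which pools sets with unlike profiles and rests on more embryos. The flatter profile is therefore not shown to be a trait of single sets. Both groups placed 66% of bins at 50% or more and 17.0% below, 4.26% reached 50% in parthenotes alone and 12.7% in IVF zygotes alone. The variability score, which is 1 for a bin replicated in 50% of embryos and 0 for one replicated in all or none, had a median over bins of 0.783 in parthenotes and 0.667 in IVF zygotes. These values come from uncorrected shares. With the interval RT, the study's own measure, which corrects the shares for uneven sampling of S phase, they were 0.812 in parthenotes and 0.764 in IVF zygotes, and the order was turned round for matched-hour parthenotes (0.752).

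The differences varied with the order in which natural zygotes copy their genome. Bins were split into 3 classes of about equal size by how often natural zygotes had replicated them. In the class least often replicated, the median centred difference was 4.32 points (47.8% of parthenotes and 50.9% of IVF zygotes replicated in the median bin), and 5.33% of these bins were earlier in parthenotes against 0.681% later. In the class most often replicated it was -3.37 points (63% of parthenotes and 73.7% of IVF zygotes), with 0.614% of bins earlier and 3.80% later. The middle class lay at -0.372 points. Directions in the outer classes were the same in matched-hour parthenotes (5.33 and -2.66 points) and in whole-hour parthenotes (1.43 and -3.11 points). The middle class lay at -2.38 points in matched-hour and at 2.5 points in whole-hour parthenotes. In the whole-hour set it thus lay above the class least often replicated, and the order of the classes was not kept.

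For GC content the directions of the outer classes were opposite in the sets of parthenotes. Both sets were scaled within the same table, so these directions are not independent. In the fifth of bins with the lowest GC content (median 37.1%) the centred difference had a median of 8.67 points in matched-hour and -5.57 points in whole-hour parthenotes, and in the fifth with the highest GC content (median 47.8%) it was -5.94 and 14.4 points. Over all parthenotes these opposite values left medians of 3.56 and 1.04 points. The same held for genes. Bins with and without a protein-coding gene had medians of -1.56 and 2.3 points in matched-hour and of 2.15 and -2.76 points in whole-hour parthenotes, which left -0.177 and 0.222 points over all parthenotes. In the last 5 Mb of the chromosomes the median was 5.88 points (48.9% of parthenotes and 50.9% of IVF zygotes replicated), with 1.93 points in matched-hour and 13 points in whole-hour parthenotes.

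Isolated pronuclei of zygotes served to ask whether the difference has the sign of that between the parental genomes. The centred difference correlated with the share of maternal pronuclei (n = 21) minus that of paternal pronuclei (n = 17) at Spearman's R = 0.0520 over all parthenotes, 0.184 over matched-hour and -0.158 over whole-hour parthenotes, so that the sign depended on the set. The profile of parthenotes itself correlated with that of maternal pronuclei at 0.618 and with that of paternal pronuclei at 0.481. This order rested on matched-hour parthenotes, with 0.564 for maternal and 0.366 for paternal pronuclei, and was turned round in whole-hour parthenotes, with 0.357 and 0.438. IVF zygotes, which hold both genomes, gave 0.706 for maternal and 0.605 for paternal pronuclei.

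Among chromosomes, the mean centred difference was highest on chromosome 5 (6.33 points, with 56.5% of parthenotes and 56% of IVF zygotes replicated), chromosome 7 (2.71 points) and chromosome 13 (1.94 points). It was lowest on chromosome 3 (-5.04 points, with 54.5% of parthenotes and 65.4% of IVF zygotes), chromosome 9 (-4.93 points) and chromosome 14 (-3.93 points). Much of this rested on the 3 embryos with no switch, without which it was 2.56 points on chromosome 5, -1.98 points on chromosome 3 and -1.92 points on chromosome 9. Without them chromosome 14 had -3.28, chromosome 7 had 1.91 and chromosome 13 had 0.782 points. The values of chromosomes 14 and 7 rested on whole-hour parthenotes, with -10.1 and 9.98 points, against -0.753 and -0.430 points in matched-hour ones. In matched-hour parthenotes the extremes were other chromosomes, 6 (5.55 points) and 11 (-4.88 points).

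On a fixed grid of 1174 windows of 2 Mb, an embryo counts as replicated in a window, as in a gene, when at least 50% of its called bins there are replicated. Of these windows 28 (2.39%) were earlier and 25 (2.13%) later in parthenotes by 20 points or more. With matched-hour parthenotes these shares were 5.79% and 5.37%, with whole-hour parthenotes 12.7% and 8.09%, and without the 3 embryos with no switch 1.87% and 2.47%. The 5 highest and 5 lowest are described. They were chosen for their differences, so their intervals show the precision of counting and are no test. The hour classes given for them hold the same embryos, so like signs across classes follow in part from that choice.

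The window with the highest difference was chr13:76000001-78000000, with 9 protein-coding genes, among them Mctp1, a membrane protein with calcium-binding C2 domains, and Fam172a. It was replicated in 28 of 44 parthenotes (63.6%, interval 47.8 to 77.6) and 21 of 57 IVF zygotes (36.8%, 24.4 to 50.7), an uncentred difference of 26.8 points (5.76 to 45.5) and a centred one of 33.9 points. Both sets of parthenotes had the higher share, 20 of 29 at matched hours and 8 of 15 at whole hours. At the latest time point it was replicated in 7 of 7 parthenotes and 6 of 15 IVF zygotes, and the parthenotes' share was the higher in all 6 hour classes.

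The next windows were GC-rich, and whole-hour parthenotes had the higher share of the sets. In chr17:28000001-30000000 (GC content 49.3%, 44 protein-coding genes including Fkbp5, a co-chaperone of steroid receptors), 27 of 45 parthenotes (60%) and 21 of 57 IVF zygotes (36.8%) were replicated, with 15 of 30 matched-hour and 12 of 15 whole-hour parthenotes. In chr5:34000001-36000000, which holds Htt, the huntingtin gene, and Poln, a DNA polymerase gene, it was 28 of 46 parthenotes (60.9%) and 22 of 57 IVF zygotes (38.6%), with 12 of 15 whole-hour parthenotes. In chr5:114000001-116000000, with Cit, a kinase of cytokinesis, and Acacb, an acetyl-CoA carboxylase, it was 22 of 46 parthenotes (47.8%) and 15 of 57 IVF zygotes (26.3%), and 11 of 15 whole-hour and 11 of 31 matched-hour parthenotes were replicated. Centred, these 3 windows were at 30.3, 29.4 and 28.6 points over all parthenotes, and at 18.8, 18.7 and 14.8 points in matched-hour parthenotes.

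In the fifth window the matched-hour set had the higher share. In chr2:14000001-16000000, which holds Cacnb2, a subunit of voltage-gated calcium channels, and Malrd1, 34 of 44 parthenotes (77.3%) and 32 of 57 IVF zygotes (56.1%) were replicated. It was replicated in 26 of 29 matched-hour parthenotes (89.7%) but 8 of 15 whole-hour parthenotes (53.3%).

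Of the windows that were later in parthenotes, those on chromosomes 11, 2 and 14 had differences of like size in both sets. In chr11:106000001-108000000, with Prkca, a protein kinase C gene, and Helz, an RNA helicase gene, 22 of 46 parthenotes (47.8%, interval 32.9 to 63.1) and 48 of 57 IVF zygotes (84.2%, 72.1 to 92.5) were replicated, so the intervals did not overlap. The uncentred difference was -36.4 points (-53.5 to -16.9) and the centred one -29.3 points, with -26.9 in matched-hour and -32.3 in whole-hour parthenotes. At 6.5 to 7 h, 2 of 9 parthenotes and 8 of 11 IVF zygotes had copied it.

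On chromosome 2, 2 Mb before the window described above, lay one that was later, chr2:10000001-12000000, which holds the imprinted gene Sfmbt2. It was replicated in 20 of 44 parthenotes (45.5%) and 46 of 57 IVF zygotes (80.7%), with 13 of 29 matched-hour and 7 of 15 whole-hour parthenotes. The centred difference was -28.1 points, with -30.2 in matched-hour and -22.1 in whole-hour parthenotes. The neighbouring genes Taf3, a subunit of the general transcription factor TFIID, and Prkcq, a protein kinase C of T cells, lie in the same window.

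In chr14:22000001-24000000, with Kcnma1, a calcium-activated potassium channel gene, and Lrmda, 20 of 45 parthenotes (44.4%) and 45 of 57 IVF zygotes (78.9%) were replicated, at centred differences of -24.9 points in matched-hour and -31.3 points in whole-hour parthenotes. The longest run of later bins, 35 bins at chr14:21850001-23600000, fell here, with a mean of 45.2% of parthenotes and 80.2% of IVF zygotes. In chr15:58000001-60000000, with Nsmce2, a SUMO ligase of the SMC5/6 complex, and Mtss1, it was 20 of 46 parthenotes (43.5%) and 44 of 57 IVF zygotes (77.2%), with -32.8 points in matched-hour and -11.9 points in whole-hour parthenotes. The parthenotes had the lower share in all 6 hour classes in each of the windows on chromosomes 11, 2, 14 and 15.

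The window on chromosome 1, chr1:120000001-122000000, with Steap3, a ferrireductase of iron uptake, was replicated in 18 of 46 parthenotes (39.1%) and 41 of 57 IVF zygotes (71.9%). There the sets differed, with 9 of 31 matched-hour and 9 of 15 whole-hour parthenotes, or -37.2 and -0.0125 points after centring.

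**Figure D4:**
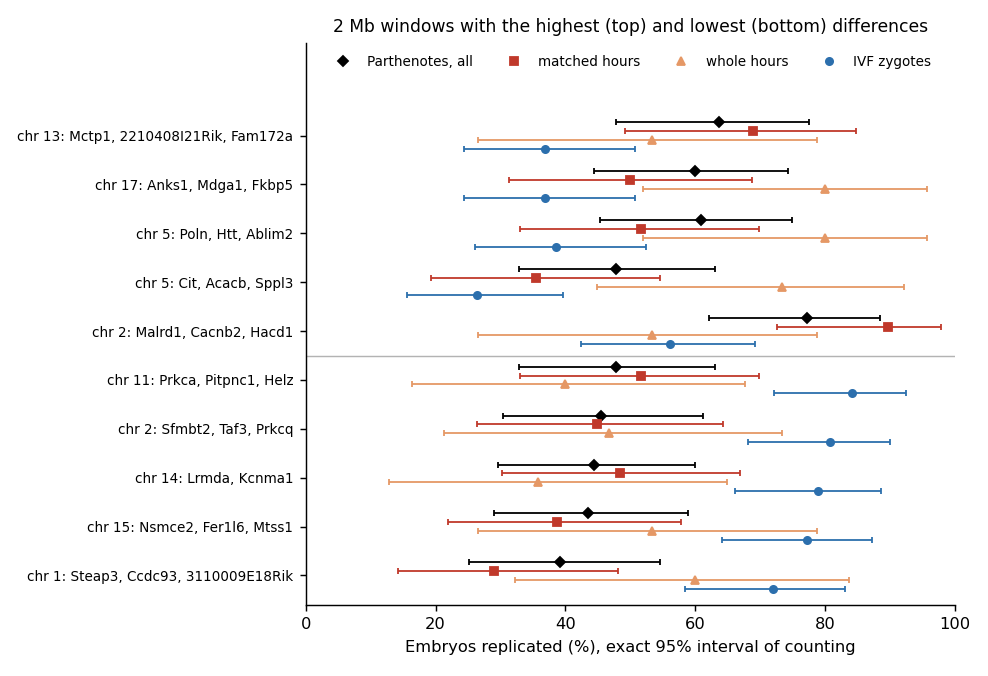
Percent of embryos replicated (x axis) with exact 95% intervals of counting in the 5 windows of 2 Mb with the highest (top) and the 5 with the lowest centred difference (bottom), for all parthenotes, matched-hour and whole-hour parthenotes and IVF zygotes; labels give chromosome and longest genes. In the window of Prkca 47.8% of parthenotes and 84.2% of IVF zygotes were replicated, and in that of Cit the whole-hour parthenotes (73.3%) lie far above the matched-hour ones (35.5%).

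Over 19955 protein-coding genes with values, the median difference was -3.86 points, 443 genes (2.22%) were earlier and 551 (2.76%) later in parthenotes. With matched-hour parthenotes these shares were 4.03% and 3.69%, with whole-hour parthenotes 17% and 12.4%, and without the 3 embryos with no switch 1.89% and 2.67%. A gene takes its value from the bins it overlaps, so neighbouring genes share values, and families that lie in clusters hold far fewer independent loci than genes. The median over all genes is 0 after centring, and gene lists are read against that and against those shares.

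Over all parthenotes, 2 of 71 imprinted genes differed by 20 points, a share near that of all genes (2.22% earlier and 2.76% later). Among 37 maternally expressed genes, none was earlier or later, and their median was -4.87 points (45.7% of parthenotes and 59.6% of IVF zygotes replicated at the median gene). Among 34 paternally expressed genes, 1 was earlier and 1 later, with a median of -2.31 points. In matched-hour parthenotes both medians lay closer to 0, at -0.509 and -0.698 points. There 5 of the 34 paternally expressed genes were earlier and 1 later, beside 4.03% and 3.69% of all genes. Ndn and its neighbours on a single stretch of chromosome 7, described below, lay at 24.6 to 28 points there. The 5 genes are therefore not 5 independent loci. None of the maternally expressed genes passed 20 points in matched-hour parthenotes. In whole-hour parthenotes 8 of the 37 maternally expressed genes were earlier and 3 later, and 2 of the 34 paternally expressed genes were earlier and 7 later, beside 17% and 12.4% of all genes. The medians there were -4.21 and -2.83 points.

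The paternally expressed gene that was later was Sfmbt2, a Polycomb-type gene of the early embryo and trophoblast (chr2:10370510-10595253, 5 bins). It was replicated in 20 of 44 parthenotes (45.5%, interval 30.4 to 61.2) and 45 of 57 IVF zygotes (78.9%, 66.1 to 88.6), at a centred difference of -29.6 points. Matched-hour parthenotes had 11 of 29 and whole-hour parthenotes 9 of 15, or -34.5 and -18.2 points. The intervals of all parthenotes and of IVF zygotes did not overlap. Sfmbt2 was named as the lowest gene of its list, so this shows the precision of counting and is no test.

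The paternally expressed gene that was earlier was Ndn, which encodes necdin, in the imprinted domain of chromosome 7 that matches the human Prader-Willi region. It was replicated in 21 of 44 parthenotes (47.7%) and 17 of 56 IVF zygotes (30.4%), or 21 points after centring. Ndn and its neighbours Magel2, Mkrn3 and Peg12, named here after their values were seen, share a stretch of the chromosome. These 4 genes had centred differences of 15.7 to 21 points over all parthenotes and of 24.6 to 28 points in matched-hour parthenotes, but of 0.583 to 10.3 points in whole-hour parthenotes. Snrpn, a splicing factor gene of the same domain, was replicated in 36.4% of parthenotes and 35.7% of IVF zygotes, or 4.51 points.

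At the Igf2 and H19 locus on chromosome 7, where a fetal growth factor gene is expressed from the paternal and a noncoding RNA from the maternal copy, both groups were late. Igf2 was replicated in 12 of 44 parthenotes (27.3%) and 11 of 56 IVF zygotes (19.6%), and H19 in 11 of 44 parthenotes (25%) and 10 of 56 IVF zygotes (17.9%), centred 11.5 and 11 points. Ano1, a chloride channel gene, was the maternally expressed gene with the highest value, 14.7 points, and Htr2a, a serotonin receptor gene, that with the lowest, -13.8 points.

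Mest, a hydrolase gene expressed from the paternal copy on chromosome 6, was replicated in 30 of 45 parthenotes (66.7%) and 49 of 57 IVF zygotes (86%), or -15.4 points. That value was -6.12 points in matched-hour and -31.9 points in whole-hour parthenotes. Peg3, a paternally expressed zinc finger gene, lay at -10.9 points, with like values in both sets (-11.2 and -8.46 points). Dlk1 and Meg3, paternally and maternally expressed neighbours on chromosome 12, lay at -8.31 and -5.71 points, and Igf2r, the maternally expressed receptor that clears Igf2, at -5.96 points. The counting intervals of parthenotes and IVF zygotes overlapped for Mest as for Igf2, H19, Ndn, Snrpn, Peg3, Dlk1, Meg3 and Igf2r. The interval of the uncentred difference lay below 0 for Mest (-36.7 to -1.52 points) and included 0 for the other 8 genes. The uncentred difference includes that of the median gene, -3.86 points, which lies further from 0 than the upper limit for Mest. Mest therefore does not stand apart from the other genes by this interval.

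The clustered chemosensory receptor families, which are late-copied in both groups, were among the lists with the highest medians. Olfactory receptor genes had a median of 5.65 points (32.6% of parthenotes and 31.6% of IVF zygotes replicated). Of 1086 genes 56 were earlier and 12 later, beside 2.22% and 2.76% of all genes. The class of bins least often replicated in natural zygotes had like values, 4.32 points with 5.33% earlier and 0.681% later. These values are therefore not particular to the receptor genes. The highest olfactory receptor gene was Olfr1036 on chromosome 2, in 18 of 44 parthenotes (40.9%) and 10 of 57 IVF zygotes (17.5%). This was carried by matched-hour parthenotes (16 of 29) and not by whole-hour ones (2 of 15). The lowest was Olfr56 on chromosome 11, at -25.4 points and with like values in both sets. Vomeronasal receptor genes had a median of 7.27 points, between Vmn1r179 (26.3 points) and Vmn1r4 (-15.7 points). Of these, 4 of 215 were earlier and none later, beside the same shares of all genes. In whole-hour parthenotes the medians of these families were 1.40 and 0.702 points, against 7.33 and 10.6 points in matched-hour parthenotes.

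Genes of the first steps of development gave mixed values. Of 23 zygotic genome activation genes only 9 had values, and their median was 9.92 points, with 12.9 points in matched-hour and -10.2 points in whole-hour parthenotes. The 9 genes lie in 10 bins, with Obox6, a homeobox gene, highest (13.1 points) and Dppa4 lowest (-14.5 points). Oocyte genes had a median of 5.00 points over 28 genes, between Padi6, a gene of the oocyte's cytoplasmic lattices (19.8 points), and Nobox, an oocyte transcription factor gene (-17.5 points), and none passed 20 points. Their median was 6.25 points in matched-hour and -3.33 points in whole-hour parthenotes. Zp3, which encodes a zona pellucida protein, was replicated in 18 of 46 parthenotes (39.1%) and 20 of 57 IVF zygotes (35.1%). Gdf9, an oocyte growth factor gene, was replicated in 29 of 46 parthenotes (63%) and 39 of 57 IVF zygotes (68.4%).

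Pluripotency genes had a median of -2.23 points over all, -0.163 in matched-hour and 4.45 in whole-hour parthenotes. Over all parthenotes none of 22 passed 20 points, with Tbx3 highest (11.3 points) and Tfcp2l1 lowest (-13.7 points). In whole-hour parthenotes 2 were earlier and 2 later, beside 17% and 12.4% of all genes. Pou5f1, which encodes Oct4, was late in both groups, replicated in 13 of 45 parthenotes (28.9%) and 15 of 57 IVF zygotes (26.3%). Nanog was replicated in 27 of 45 parthenotes (60%) and 39 of 57 IVF zygotes (68.4%). Of the trophectoderm genes, with a median of 4.13 points over 18 genes but -3.90 points in matched-hour and -1.07 points in whole-hour parthenotes, Tfap2c was highest (19.8 points) and Dppa1 lowest (-19.3 points). Cdx2, the transcription factor gene of trophectoderm, was replicated in 34 of 46 parthenotes (73.9%) and 35 of 57 IVF zygotes (61.4%). All 15 whole-hour parthenotes had copied it, against 19 of 31 matched-hour ones. Primitive endoderm genes had the lowest median of the lists, -5.82 points over 20 genes, but -0.0283 points in matched-hour parthenotes, between Sox17 (12.5 points) and Foxa2 (-16.8 points).

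Genes of the replication machinery had a median of 1.5 points over 35 genes (2.32 in matched-hour and -1.40 in whole-hour parthenotes, and -1.87 with the interval RT), and none passed 20 points. Pcna, the sliding clamp of the replication fork, was replicated in 28 of 44 parthenotes (63.6%) and 39 of 57 IVF zygotes (68.4%). Gins2, a subunit of the replicative helicase, was highest (17.6 points) and Orc2, a subunit of the origin recognition complex, lowest (-18.9 points). Replication-dependent histone genes, 67 genes in 16 bins, were copied early in both groups (70.5% of parthenotes and 68.4% of IVF zygotes) at a median of 5.89 points, between Hist1h2ab (15.3 points) and Hist3h2ba (-7.24 points). The median was 10.4 points in matched-hour and 0.702 points in whole-hour parthenotes, and it turned to -1.45 points with the interval RT.

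Housekeeping genes had a median of 1.03 points, with 2 of 31 earlier and 1 later, beside 2.22% and 2.76% of all genes. The highest was Gpi1, a glycolysis gene (24.5 points), and the lowest Snrpd3, a splicing factor gene, replicated in 23 of 46 parthenotes (50%) and 43 of 57 IVF zygotes (75.4%). Snrpd3 lay at -21.6 points over all parthenotes, at -30.2 points in matched-hour and -1.40 points in whole-hour parthenotes. Actb lay at 10.4 points, and Gapdh at the median of all genes. Of 90 cytosolic ribosomal protein genes 3 were earlier and none later, beside the same shares of all genes. Rps10 was the highest, in 19 of 45 parthenotes (42.2%) and 9 of 57 IVF zygotes (15.8%). The difference was larger in the whole-hour set, with 13 of 15 embryos against 6 of 30 matched-hour ones. Rps6 was the lowest (-19.0 points). In whole-hour parthenotes 28 of the 90 genes were earlier, beside 17% of all genes.

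Ribosome biogenesis genes had a median of -2.85 points over 29 genes, between Taf1c, a subunit of an RNA polymerase I factor (17.9 points), and Nolc1, a nucleolar phosphoprotein gene, replicated in 22 of 46 parthenotes (47.8%) and 42 of 57 IVF zygotes (73.7%). Nolc1 lay at -22.0 points both over all and in matched-hour parthenotes, and at -19.6 points, just short of the threshold, in whole-hour ones. Hox genes, 39 genes in 13 bins, had a median of -1.94 points, between Hoxa13 (4.80 points) and Hoxb5 (-9.72 points), but a median of 4.58 points in matched-hour and of -2.81 points in whole-hour parthenotes. Clustered protocadherin genes, 57 genes in 16 bins, had a median of 5.5 points, between Pcdhga1 (7.67 points) and Pcdhb1 (-2.28 points). That median was 6.96 points in matched-hour and -7.02 points in whole-hour parthenotes, and -0.329 points without the embryos of the latest time point. Zinc finger genes with Zfp symbols had a median of 0.809 points over 349 genes (-0.943 in matched-hour and 3.56 in whole-hour parthenotes). Of these, 14 were earlier and 6 later, beside 2.22% and 2.76% of all genes. Zfp804b was the highest, in 34 of 46 parthenotes (73.9%) and 26 of 57 IVF zygotes (45.6%), and Zfp949 the lowest, in 21 of 46 parthenotes (45.7%) and 45 of 57 IVF zygotes (78.9%).

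The longest genes, neuronal adhesion and synaptic genes, differed widely as a list between the sets of parthenotes. The median of 33 long neuronal genes was -2.11 points over all parthenotes, 5.30 points in matched-hour and -18.2 points in whole-hour parthenotes, and 15 of the 33 were later in whole-hour parthenotes, beside 12.4% of all genes. Lrp1b, a lipoprotein receptor-related gene of over 2 Mb, was replicated in 27 of 29 matched-hour parthenotes (93.1%), 6 of 15 whole-hour parthenotes (40%) and 39 of 57 IVF zygotes (68.4%). Csmd1 was replicated in 22 of 31 matched-hour parthenotes (71%), 8 of 15 whole-hour parthenotes (53.3%) and 43 of 57 IVF zygotes (75.4%). Cntnap5b was later in both sets, replicated in 20 of 46 parthenotes (43.5%) and 42 of 57 IVF zygotes (73.7%).

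**Figure D5:**
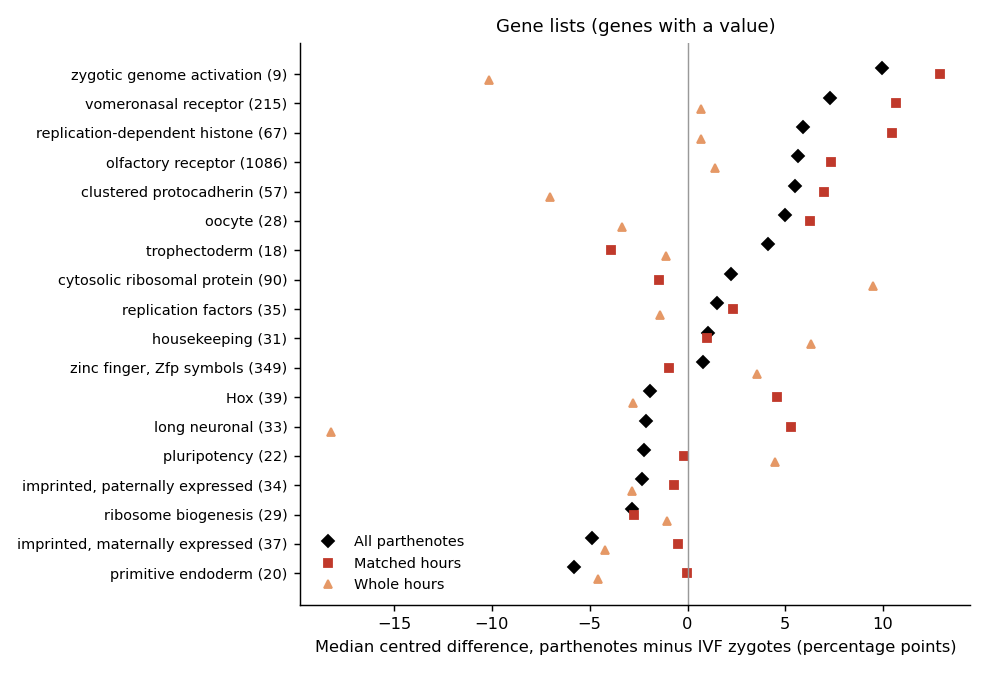
Median centred difference (parthenotes minus IVF zygotes, percentage points, x axis) of 18 gene lists (y axis, with the number of genes with a value) for all parthenotes and for matched-hour and whole-hour parthenotes. Long neuronal genes lie at 5.30 points in matched-hour and -18.2 points in whole-hour parthenotes, and the imprinted lists lie near 0 in matched-hour parthenotes.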

How the data were processed

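Single-cell Repli-seq was done by the authors on single 1-cell embryos. By the submitters' processing notes and the study's methods, reads were aligned to mm10 (GRCm38) with Bowtie2 2.3.5, filtered with SAMtools 1.9 and counted per bin of 50 kb with bedtools 2.29.0. The authors scaled the counts by the total of each embryo and by the mean of the bin over all samples of a stage, masked outlying bins, smoothed and segmented each embryo, and split the segments into 2 states with a mixture model. The deposited values are these states of 49264 bins, an other kind of unit than counts, and read depth per embryo was not used here. Since scaling and splitting were done within a stage, a deviation of a bin that all embryos of a stage share was divided out, and levels set across tables rest on separate normalization.

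From the states, the share of embryos replicated was computed per bin, per gene (GENCODE M21 annotation of the same build) and per window of 2 Mb with at least 20 bins, where at least 10 embryos of both groups had a state. Differences were parthenotes minus IVF zygotes, centred on the median, and called at 20 percentage points. Intervals of a difference combine both exact intervals. No test was run, because the labels give no animals or collections. GC content came from the GRCm38 sequence. Words of the study's quality table (passed, flagged, failed) were used. The named genes were a fixed set of 17 genes, and the highest and lowest gene of each of 18 lists. Named windows were the 5 highest and 5 lowest, and named chromosomes the 3 highest and 3 lowest. The members and lists were chosen with earlier results of these data known. Any 2 embryos of a group had equal states in at most 82.0% of bins, so none was counted as deposited again. The listed genes Hprt, Dkc1, Nr0b1, Esx1 and Plac1 were not matched on the autosomes. Steps were tested on simulated data. Alternatives changed the centring, the RT measure (the mean over 16 intervals of the score, 35 points wide and 4.33 points apart), the hours, the embryos and the thresholds. Python 3.11.15, NumPy 2.4.6, pandas 2.3.3, SciPy 1.17.1 and Matplotlib 3.10.9 were used.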

Additional observations from a re-analysis of the deposited data

Results flagged for a closer look

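Of 30 sets of 4 to 10 embryos of the same group and hour, taken over 3 measures, 3 held an embryo far from the rest, and chance alone flags about 1 in 20 such sets. Among 7 IVF zygotes of 8.5 h, the lowest replication score was 44.2, against 62.4 for the next and a median of 65.8. The same embryo had the lowest Pearson's r with the share of parthenotes in that set, 0.126, against 0.333 for the next, so 2 of the 3 sets point to 1 embryo. It lacked values on a whole chromosome and was flagged, not failed, in the study's quality table. Among 4 parthenotes of 8.5 h, the highest number of state switches was 1521, against 1170 for the next.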

How the results depend on the processing

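The share of bins called depended most on the settings, some of which leave fewer embryos, so that counting alone spreads the differences more. Without centring, 0.523% of bins were earlier and 8.53% later in parthenotes. With the interval RT 4.20% were later. With matched-hour parthenotes alone 5.40% were earlier and 5.19% later, and with the interval RT on them 8.21% and 7.45%. At 30 points it was 0.146% and 0.153%. Without the embryos of 7.5 to 8 h 4.37% were earlier, without those of 9.5 to 10 h 3.81% were earlier and 3.90% later, and without those of the latest time point 4.03% and 3.82%. With whole-hour parthenotes alone, a setting added after the data were seen, as were the interval RT of matched-hour parthenotes and the omission of 3 embryos with no switch, 12.9% were earlier and 9.21% later. Spearman's R between the groups was 0.375 with whole-hour parthenotes and 0.599 with the interval RT of matched-hour parthenotes, and the median of zygotic genome activation genes was -10.2 points with whole-hour parthenotes. Olfr1036 turned to -3.51 points there. Over the settings, 781 values of the named genes and 146 of the named windows stayed within the counting interval of the difference over all embryos, and 13 and 4 left it. All bins used were called in 80% of embryos or more, and with the 33 parthenotes and 53 IVF zygotes that passed the study's quality check, each share of bins stayed within 1.5 times its value over all embryos. No paired analysis was possible because no result comes from a test and replicate numbers only name embryos. With 15 whole-hour parthenotes, 1 embryo is worth several points of a share, which limits that set. Of the 4 parthenotes that failed the study's quality check, those of 6, 7 and 10 h lie in it. Values of the whole-hour set without them were not computed.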

Other observations

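The 11 parthenotes collected after the hours compared here, 5 at 11 h and 6 at 12 h, had replication scores of 25.0 to 87.3 with a median of 48.7, below that of the parthenotes of the latest time point compared. They too were collected at whole hours. Across bins, their share replicated correlated at Spearman's R = 0.344 with that of the whole-hour and at 0.0439 with that of the matched-hour parthenotes, at 0.283 with that of IVF zygotes, at 0.482 with that of natural zygotes and at 0.464 with GC content.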
